A study of Mus musculus with 2 samples.

Results

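The lineage factors of the salivary epithelium examined here were 9 genes for transcription factors, namely Sox2, Sox9, Sox10, Pitx1, Elf5, Etv4, Etv5, Foxi1 and Ascl3. They were taken by gene name from the 36870 genes named on an Agilent mouse expression array, which carried 12 of its 56597 probes for them. RNA came from epithelial cells of the submandibular gland, collected on magnetic beads against EpCAM (an adhesion molecule of epithelial cells) from female mice of the C57BL/6 strain (C57BL/6N in the study's methods). By the design text there was 1 young mouse, 9 weeks old, and 1 aged mouse, 24 months old, and each group had 1 array. The comparison asked how gene expression in these cells differed with age. Both arrays were labelled with Cy3 and lay on the same slide, and no gene was deleted or agent given in either group. The young and aged mice of the study were obtained from different sources, so that age and origin cannot be told apart. No age had a second array, so differences could not be checked on replicates, and every value below describes these 2 arrays.

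SOX proteins bind DNA through a high-mobility-group box, and Sox2, Sox9 and Sox10 are known from the progenitor cells of the developing salivary gland, with Sox10 marking cells that give rise to acinar and myoepithelial cells. Pitx1 is a homeobox factor of the oral ectoderm, from which the glands bud. Elf5, Etv4 and Etv5 share the ETS domain. Elf5 is known for the secretory lineage of the mammary gland, whereas Etv4 and Etv5 are transcribed where fibroblast growth factor (FGF) receptors activate ERK, as at the tips of branching epithelia. Foxi1, a forkhead factor, and Ascl3, a basic helix-loop-helix factor, mark ionocytes and related cells of the ducts, which carry proton pumps and ion channels.

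The probes are oligonucleotides of 60 bases, and each of the 12 stood in 1 spot per array. Sox9, Elf5 and Etv4 had 2 probes each, and the other 6 genes had 1. The sequences that the results turn on are those of the single Etv5 probe, the Etv4 probe set beside it, and both Elf5 probes, which gave different values. The first 30 of the 60 bases are printed from the 5′ end as the files give them, in lower case throughout, since no position within a probe was singled out.
Etv5, NM_023794, chr16:22381387-22381446: tgcaccctgccgagctgcgtatattctgta
Etv4 probe 1, ENSMUST00000164750, chr11:101631057-101631116: taattccacctttgcctcttatgccagacc
Elf5 probe 1, NM_010125, chr2:103290958-103291017: tgtctagtgaccggcactgaatagcaatgc
Elf5 probe 2, ENSMUST00000137973, chr2:103285311-103285370: tcagctctgggacctctgggacggaggtga
The coordinates are those of the whole probe in the files (mm9, NCBI37). The Etv4 and Etv5 probes run in descending coordinates and the Elf5 probes in ascending ones. Whether a probe lies in an exon, intron or untranslated region was not analysed here. Of the 12 probes, Etv4 probe 1 was the only one with 20 or more bases in common with another probe of the array, listed for the transcript ENSMUST00000154520.

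Signals were measured as the background-subtracted intensity of a spot, and levels are given as log2 of the signal relative to the 75th percentile of the array, which was 256 (young) and 198 (aged). A probe counts as measured where the scanner software marked it well above background, and as kept where it was measured on at least 1 array. The share of spots measured was 55.4% (young) and 50.8% (aged). Differences are aged minus young on this log2 scale, a 2-fold difference was the threshold, and a gene with several kept probes takes the brightest. The error given with a difference comes from the software's error model for the spots. It covers measurement and not the spread between mice, and repeated spots of other probes varied less (median SD of 0.033 over 293 probes in 10 spots each). There was no unsorted sample, so the sorting of the cells could not be checked, and markers of other cell types were measured too, as given below. The 7 epithelial genes examined, Epcam, Cdh1, Krt8, Krt18, Cldn7, Esrp1 and Esrp2, were all measured on both arrays. They differed by 0.02 to 0.21, with a median of 0.07 that lay between -0.22 and 0.25 over the scalings compared below.

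By the brightest probe, all 9 lineage factors were measured on both arrays. Etv5 was the only one to differ by at least 2-fold, and it was lower on the aged array. The other 8 differed by between -0.52 (Sox2) and 0.53 (Ascl3), and 5 of the 9 by less than 0.2 in size. Thus 1 of 9 was at least 2-fold lower and 0 were higher, whereas among all 18693 genes measured on both arrays 3.04% were at least 2-fold lower and 1.51% higher. A count of 1 in 9 genes cannot be set apart from that background. By probe, 11 of the 12 were kept, of which 2 were at least 2-fold lower (Etv5, and Elf5 probe 2 by a limit) and 0 higher, beside 4.79% lower and 2.32% higher among all 30907 kept probes. The median difference of the 9 genes was -0.03, beside 0.09 for all genes measured on both arrays.

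**Figure D1:**
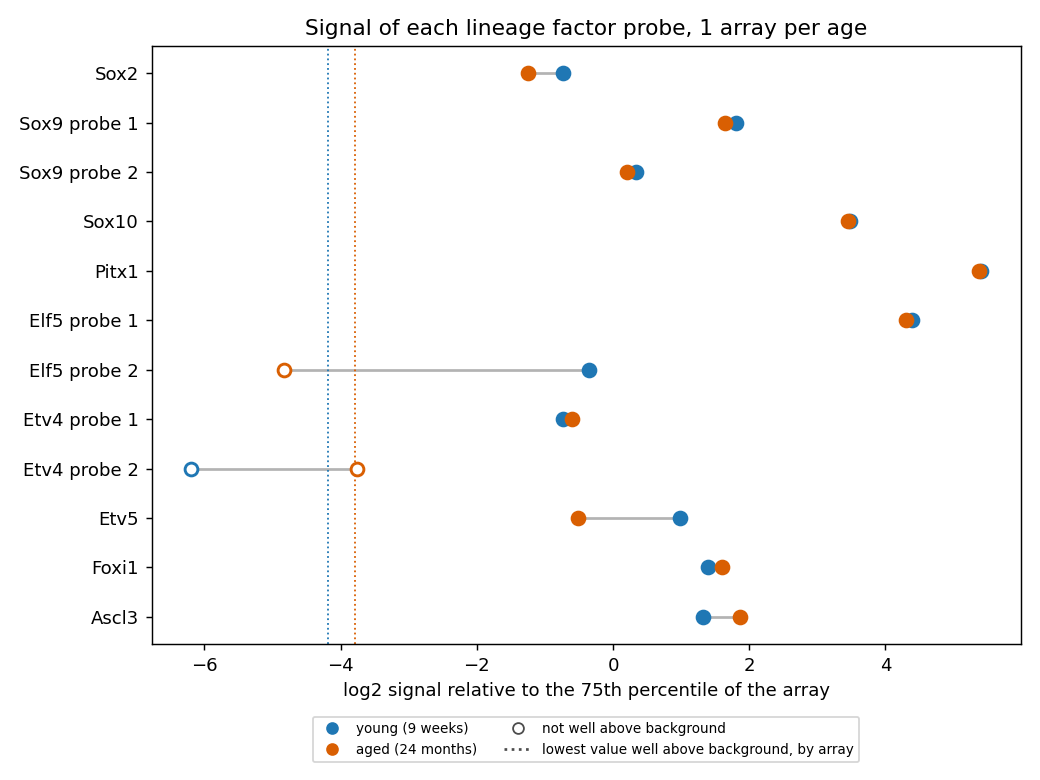
Level of each probe for the 9 lineage factors on the young (blue) and aged (orange) array, 1 array per age, on the horizontal axis as log2 signal relative to the 75th percentile of the array. Open circles were not well above background and the dotted lines give the lowest level that was, by array. Etv5, Elf5 probe 2 and Etv4 probe 2 show a wide gap between the ages, and most other pairs nearly coincide. Etv4 probe 2 was not measured on either array, so its gap gives no fold.

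Of the SOX genes, Sox10 had signals of 2854 (young) and 2161 (aged). Relative to the 75th percentile these are levels of 3.48 and 3.45, a difference of -0.03 with an error of 0.20. The young and aged signals thus nearly coincided after scaling. Sox10 is also a gene of Schwann cells, and 8 of 10 Schwann cell and glial markers were kept on these arrays. Their summed level, in multiples of the 75th percentile, was 13.5 (young) and 11.1 (aged), and 0 of them differed by 2-fold. Gfap and Cdh19 were measured on neither array. The part of such cells in the Sox10 signal was not tested.

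Sox9 was read by 2 probes that start 918 bases apart on chromosome 11. The brighter one had signals of 899 (young) and 620 (aged), and the other of 323 and 229. Their differences of -0.16 and -0.12 lay within 0.04 of each other and within the error of 0.20 and 0.21. Sox2 was dim, with signals of 155 (young, error 15.8) and 83.3 (aged, error 8.86). Its level went from -0.73 to -1.25, a difference of -0.52 with an error of 0.21, or 1.43-fold lower on the aged array. Of the genes measured on both arrays, 8.92% had a difference at or below that of Sox2. Relative to Sox9 on the same array, which does not depend on a constant scaling, Sox2 differed by -0.36 with an error of 0.29. The 3 probes for Sox2ot, a noncoding transcript that overlaps Sox2 and was looked up after the values were seen, were measured on neither array.

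Pitx1 had signals of 10844 (young) and 8203 (aged). Its levels of 5.40 and 5.37 gave a difference of -0.03 with an error of 0.20. The Pitx1 difference was thus as small as that of Sox10.

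The probes for Elf5 did not behave alike. Probe 1, which the files match to the RefSeq transcripts of Elf5, had signals of 5388 (young) and 3905 (aged). Its difference was -0.09 with an error of 0.20, or 1.07-fold lower. Probe 2, listed for the transcript ENSMUST00000137973 and placed 5647 bases from probe 1 on chromosome 2, had a signal of 199.6 (error 22.7) in the young sample. On the aged array its value was 6.92 with an error of 3.21, and it was not well above background. The level on the young array was -0.36, and the lowest level well above background on the aged array was -3.79, so that probe 2 was at least 10.8-fold lower there. The probes of this gene therefore differed by at least 10.1-fold in their change between the same 2 arrays. Under the 7 scalings compared, the limit for probe 2 lay between at least 3.12-fold (normexp) and at least 12.9-fold lower (spike-in controls). Of the 3459 probes measured on the young array only, 21.1% were at least 2-fold lower by their limit. Among the 6291 genes with several kept probes whose brightest was measured on both arrays and differed by under 2-fold, 144 (2.29%) had another probe that was at least 2-fold lower in this way, Elf5 included.

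By the brightest probe of each gene, Etv5 had the widest difference of the lineage factors, while the limit for Elf5 probe 2 was wider. Its signal was 509 (error 51.0) in the young and 139 (error 14.3) in the aged sample. The level went from 0.99 to -0.51, a difference of -1.50 with an error of 0.21, or 2.83-fold lower on the aged array. Of the 18693 genes measured on both arrays, 244 (1.31%) had a difference at or below that of Etv5. Its close relative Etv4 had signals of 154 (young) and 130 (aged) by probe 1, a difference of 0.13 with an error of 0.21. Relative to Etv4 on the same array, Etv5 was lower on the aged array by a log2 difference of -1.63 with an error of 0.30. Relative to the median of the 7 epithelial genes, it was 2.98-fold lower. Probe 2 for Etv4 was measured on neither array, with a value of 14.6 on the aged array and a substitute value on the young one, and gives no fold. It is the Etv4 probe that was matched to a RefSeq transcript of the gene. The Etv4 values, and Etv5 relative to Etv4, thus rest on probe 1 alone, listed for ENSMUST00000164750 and not matched to RefSeq. The probe that shares bases with Etv4 probe 1 differed by 0.36. Etv1, the third member of this subfamily, had signals of 9196 (young) and 6317 (aged) and differed by -0.17, and its other probe by 0.42.

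**Figure D2:**
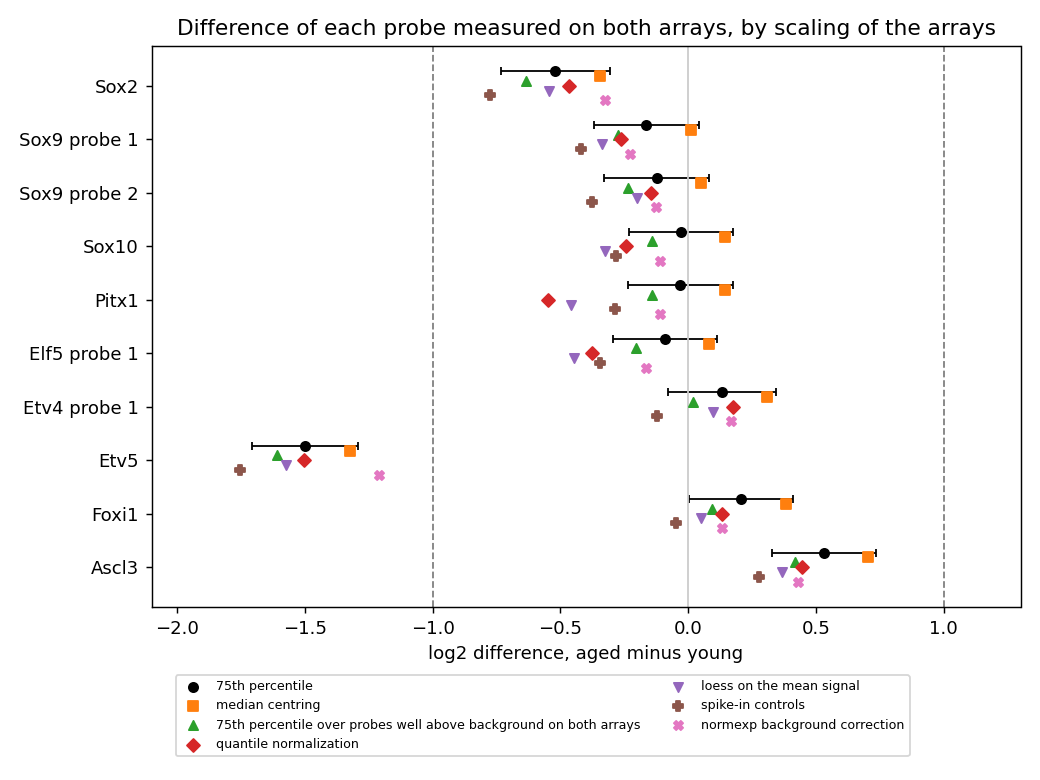
Log2 difference, aged minus young, of the 10 probes measured on both arrays, under each of 7 scalings of the arrays (symbols), with dashed lines at 2-fold. Bars give the error of the difference from the software's error model for the 75th percentile scaling. Etv5 lies between -1.75 and -1.21 and past 2-fold under every scaling, and the other 9 probes lie within 2-fold under all of them.

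The ionocyte factors lay above 0 on the 75th percentile scale, although Foxi1 did not do so under every scaling. Foxi1 had signals of 676 (young) and 602 (aged), and levels of 1.40 and 1.61. Its difference was 0.21 with an error of 0.20, and it turned to -0.05 when the spike-in controls were used to scale the arrays. Of the genes measured on both arrays, 62.1% had a difference at or below that of Foxi1. Ascl3 had signals of 643 (young) and 718 (aged) and levels of 1.33 and 1.86. Its difference of 0.53 with an error of 0.20, or 1.44-fold higher, was the highest of the lineage factors, and 87.6% of the genes measured on both arrays had a difference at or below it. It lay between 0.28 and 0.70 over the scalings. Ascl3 differed from Foxi1 by 0.32 within the arrays, with an error of 0.29.

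The sign of a difference near 0 depended on the scaling. Sox2 and Etv5 were below 0 and Ascl3 above 0 under all 7 scalings. Sox9, Sox10, Pitx1 and Elf5 (by probe 1) turned to between 0.01 and 0.15 under median centring of the arrays. Their lowest values were -0.42 (Sox9, spike-in controls), -0.33 (Sox10, loess), -0.55 (Pitx1, quantile normalization) and -0.45 (Elf5, loess). Etv4 turned to -0.12, like Foxi1, with the spike-in controls. The median of all genes kept moved by 0.17 with that centring and by -0.25 under scaling on the controls.

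Genes of the same families were read beside the lineage factors. Of 25 relatives (other SOX, PITX, ELF, FOXI, ASCL and ETV genes), 19 were kept, with 0 at least 2-fold higher and 1 lower, beside 2.53% higher and 5.14% lower among all 21284 genes kept, values set by a limit included. Their median difference was -0.03, beside 0.06 for all genes kept. The relative that passed 2-fold was Elf4, an ETS factor known from lymphoid and natural killer cells, with signals of 108 (young) and 24.98 (aged) and a difference of -1.75. With the normexp background correction it was -0.76. Ehf and Elf3, ETS factors of epithelial cells, differed by 0.57 and 0.50. Sox8, Sox11, Foxi3, Ascl2 and Ascl4 were among those measured on neither array. Of 26 other transcription factors of salivary epithelium, 23 were kept, and 0 were at least 2-fold higher and 2 lower. These were Hey1, a target of Notch signalling, with signals of 422 and 135 and a difference of -1.27, and Id4, an inhibitor of helix-loop-helix factors, with -1.05, which lay under 2-fold with median centring, quantile normalization and normexp. Hes1, of the same list as Hey1, differed by 0.32 and lay between 0.06 and 0.49 over the scalings. Bhlha15, the acinar factor also called Mist1, differed by -0.04.

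Of 12 FGF ligands and receptors, 10 were kept, and 0 differed by 2-fold in either direction on the 75th percentile scale. Fgf10, the mesenchymal ligand of the branching gland, differed by -0.48 from signals of 66.8 (young) and 37.0 (aged). Fgfr2, its epithelial receptor, had signals of 231 and 205 and differed by 0.20, whereas Fgfr1 had signals of 473 and 185 and differed by -0.98, past 2-fold lower under 4 of the 7 scalings. Of 16 genes known as targets or feedback inhibitors of FGF and ERK signalling, 15 were kept, with 0 higher and 1 lower by 2-fold. The shares over all genes kept were 2.53% higher and 5.14% lower, and 1 in 15 cannot be set apart from them. A difference below 0 was found for 10 of the 15, and the share of all genes below 0 was not counted. The median of the list was -0.18, beside 0.06 for all genes kept, and lay between -0.44 and 0.00 over the scalings. The gene that passed was Dusp4, a phosphatase that acts on MAP kinases, with signals of 436 (young) and 149.7 (aged). It differed by -1.17 by its brighter and by -1.07 by its other probe, and lay between -1.43 and -0.96 over the scalings. Spred1, Spry1 and Dusp6, further feedback inhibitors, differed by -0.93, -0.67 and -0.38, while Spry2 differed by -0.18 by its brighter and 0.60 by its other probe. Egr1, an immediate early gene, differed by -0.43. By the brightest probe, the 5 genes of this list above 0 were Ier3 (0.34), Fosl1 (0.27), Dusp5 (0.22), Il17rd (0.10) and Phlda1 (0.04). Spry4 was measured on neither array.

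Several markers of other cells were lower on the aged array, as Etv5, Elf4 and Dusp4 were. All 8 fibroblast markers were kept, and 4 were at least 2-fold lower, namely Col1a1, Col1a2 and Col3a1 as measured and Pdgfra by its limit of at least 2.45-fold. Among all genes kept, 5.14% were at least 2-fold lower and 2.53% higher. The 2 fibroblast markers above 0 were Pdgfrb (0.31, measured on the young array only) and Fbln1 (0.06, its other probe -0.25). With normexp Col1a1 (-0.78) and Pdgfra fell short of 2-fold, whereas Dcn, a collagen-binding proteoglycan, differed by -0.98 and passed it under 5 of the 7 scalings. Their summed level was 19.0 (young) and 9.06 (aged), and their median difference was -1.14, between -1.39 and -0.57 over the scalings. Of 10 immune markers, 8 were kept, with 3 at least 2-fold lower and 1 higher, and Cd79a and Cd8a measured on neither array. The lower ones were the macrophage and dendritic cell genes Lyz2, Adgre1 and Itgax, with -1.91, -1.36 and -1.64, although a dimmer probe for Itgax differed by 0.42. The summed level of the immune markers was 113 (young) and 43.5 (aged), of which Lyz2 made up 92.9 and 24.7. Without it the other 7 summed to 20.1 and 18.8. The 6 endothelial markers had a summed level of 5.32 and 3.74, with 0 past 2-fold. The part of these cells in the values of Etv5 was not tested. In RNA from a sorted population, fewer cells of a type and less RNA per cell cannot be told apart.

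Of 17 genes of ionocytes, 14 were kept, and 0 differed by 2-fold. Cftr, the chloride channel that is most abundant in these cells, had signals of 262 (young) and 184 (aged) and differed by -0.14. The proton pump subunits Atp6v1b1 and Atp6v0d2 differed by 0.52 and -0.13, and Bsnd, a subunit of chloride channels, by -0.81. The median of the list was -0.14, between -0.40 and 0.03 over the scalings, so that its sign was not fixed. Slc26a4, Rhcg and P2ry14 were measured on neither array. On the 75th percentile scale 9 of these 14 genes had differences below 0, where the median of all genes kept was 0.06. Ascl3 and Foxi1 lay above 0 on that scale, Foxi1 not under every scaling.

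**Figure D3:**
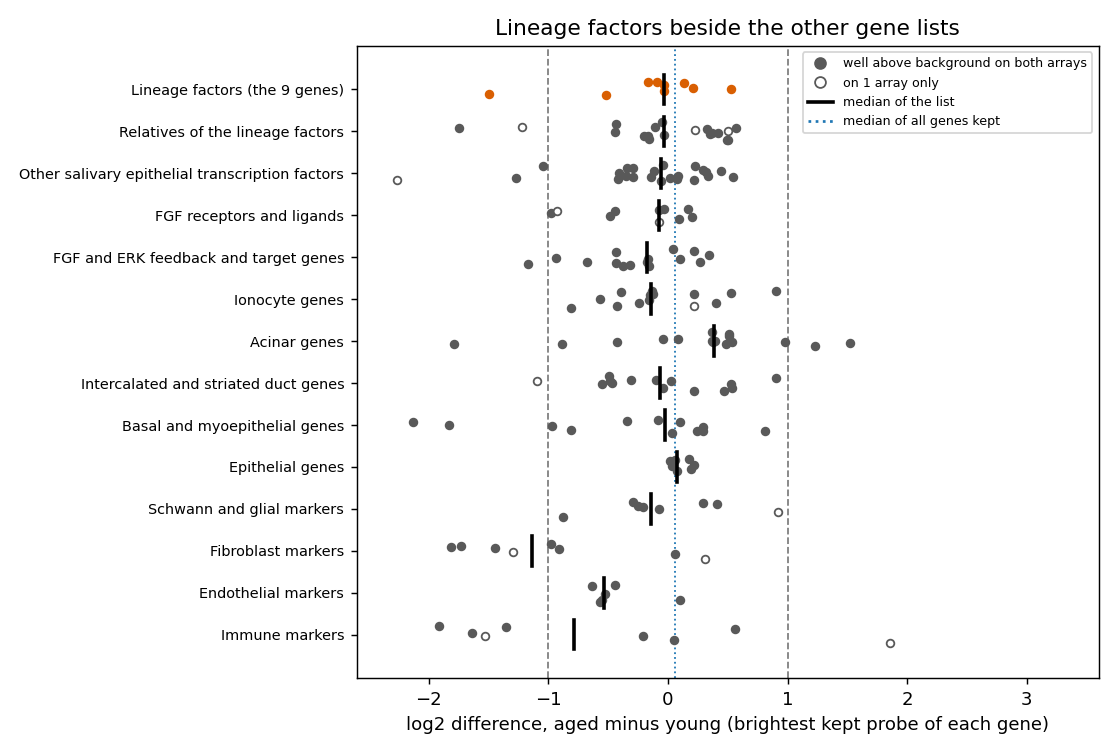
Log2 difference, aged minus young, of each kept gene by its brightest probe, for the 9 lineage factors (orange) and the 13 other gene lists (grey). Dashed lines mark 2-fold, the short black bars the median of a list and the dotted line the median of all genes kept, 0.06, and open circles are genes measured on 1 array only, drawn at their values as they stand. The fibroblast and immune markers have the lowest medians, and the lineage factors apart from Etv5 lie within 2-fold.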

How the data were processed

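The deposited scanner files were made by the authors with Feature Extraction 12.0.3.1 and, per the file headers, give the intensity of each spot with a fitted background surface subtracted and trends across the array removed, without scaling between arrays. A substitute value stands where a signal lay below its error. The authors' processed table holds the same intensity values divided by 228.7 (young) and 175.98 (aged), the 75th percentile over all spots, for all 62976 spots within 0.1%. The column medians of that table are 0.0922 and 0.0817. It is on a linear scale and not centred per gene.

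Here, each processed signal was divided by the 75th percentile of its array, taken over 59305 spots without controls, and put on the log2 scale. Outlier spots (90 on the young, 93 on the aged array) were left out, none was saturated, and repeated spots were averaged by probe. The filter kept the 30907 probes measured on either array or both. Where a probe was measured on 1 array only, its value was compared with the lowest measured signal of the other array (14.1 young, 14.3 aged) or, where that was higher, with the probe's own signal there, which gives a limit of the fold. Medians and sums of lists take such genes at their values as they stand. No test was possible with 1 array per group, and the number of arrays limits the precision. The files' gene names were used. Of the 12 probes, 10 carry a RefSeq accession that matched the same symbol in a table on GRCm38.p6, used for names only.

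The genes were named by a rule: all 9 lineage factors with every probe, and of each of 13 other lists the genes past 2-fold and its defining genes. Further list genes were named after their values were seen, and some list genes that count in the totals are not reported here by name. The lineage factors and lists were chosen with earlier results of these data known. Alternatives were median centring, the 75th percentile over probes measured on both arrays, quantile normalization, loess (span 0.7, 3 iterations), spike-in controls, normexp (offset 50), the authors' table, outliers kept, the mean of a gene's probes, and 2 other filters on dim probes. The first 6 of these and the main setting are the 7 scalings. The steps were checked on simulated data, in which only brighter probes were given known changes. That check did not cover dim probes or the limits. R 4.3.3 with limma 3.58.1 and Python 3.11.15 with numpy 2.4.6, pandas 2.3.3 and matplotlib 3.10.9 were used.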

Additional observations from a re-analysis of the deposited data

How the results depend on the processing

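Under the 11 alternatives, 0 lineage factors were at least 2-fold higher. The number at least 2-fold lower was 1 (Etv5) under 10 of them and 2 when the kept probes of a gene were averaged, since Elf5 then differed by -2.29 through its probe 2. The Etv5 difference lay between -1.75 (spike-in controls) and -1.21 (normexp) and stayed past 2-fold under each alternative that gave it a value. In the 13 other lists, 3 genes were higher and 14 lower. The number of higher genes was 6 with median centring and 1 with normexp. The number of lower genes was 22 with the 75th percentile over probes measured on both arrays, 25 with the spike-in controls and 9 with normexp. It was 21 with the mean of a gene's probes and 21 without a filter on dim probes. Over all genes kept, 538 were higher and 1094 lower (33.0% higher), 800 and 865 (48.05%) with median centring, and 350 and 1604 (17.9%) with the spike-in controls. The counts were 182 and 297 with normexp, and 1680 and 2398 without a filter on dim probes. No paired analysis was possible because each group has 1 array, and for the same reason no replicate could be left out. Signal over background left Elf5 probe 2 with a limit only and Etv4 probe 2 with no fold.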

Other observations

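The genes of the compartments that the lineage factors are known from differed among themselves. Of 17 acinar genes, 16 were found on the array by the name used, and both samples gave a measured signal for each. Of these, 2 were higher by at least 2-fold in the aged sample and 1 was lower, beside 1.51% higher and 3.04% lower among all genes measured on both arrays. Bpifa2, a secreted protein of saliva, had signals of 91878 (young) and 204070 (aged) and was 2.87-fold higher, and Amy1, an amylase, was 2.35-fold higher from signals of 130 and 236, while its other probe differed by -0.29 on the log2 scale. Smgc, a secretory product of the immature gland, had signals of 50183 and 11245 and was 3.45-fold lower, and -1.80 on the log2 scale by its other probe. Bpifa2 lay under 2-fold after loess, and Amy1 with the spike-in controls and with normexp. The acinar median, 0.38, ranged from -0.39 to 0.56 with the scaling.

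The basal and myoepithelial genes, 12 in number, all had measured signals in both samples. By the brightest probe, 2 were at least 2-fold lower in the aged one and 0 higher, beside 3.04% and 1.51% of all genes measured on both arrays. Cnn1 (calponin) had signals of 724 (young) and 127 (aged) and was 4.39-fold lower, and Myh11 (smooth muscle myosin heavy chain) was 3.55-fold lower from signals of 99.1 and 21.6, or -0.49 on the log2 scale with normexp, and another of its probes differed by 0.12. Acta2, the smooth muscle actin, differed by -0.08 by its brightest probe but by -1.96 by another, and the third, measured in the young sample only, had a limit of -2.11. Tagln, a further contractile gene, differed by -0.34, and Krt5, Krt14 and Trp63, basal cell genes, by 0.03, 0.25 and 0.29. Of 15 genes of the intercalated and striated ducts, 14 were kept and 0 differed by 2-fold. Kit, a receptor of duct progenitor cells, had the highest difference of these, 0.91, and its other probes differed by 0.89 and 0.44.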
